A study of Mus musculus with 4 samples.

Results

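The D-type cyclins and G1 kinases described here are 10 genes, Ccnd1, Ccnd2, Ccnd3, Cdk4, Cdk6, Cdk2, Cdc25a, Rbl1, Rbl2 and E2f4, taken by symbol from a deposited table of 56691 genes. They were chosen as genes of G1 entry and quiescence, and all 10 were among the 17188 genes with enough reads to be tested. The study treated mice that carry 1 mutant p53 allele with arsenic trioxide (ATO), an arsenic compound used as a drug and tested there for its ability to rescue mutant p53, and sequenced the RNA of 4 sarcomas. ATO 1 and ATO 2 came from mice given 35 mg ATO in each litre of drinking water from day 90 after birth, and PBS 1 and PBS 2 from mice whose labels name PBS as the treatment and which the methods call untreated. Both groups shared the heterozygous genotype p53R282W/+, in the labels' human numbering, or p53-R279W in that of the mouse gene edited with CRISPR/Cas9 on a C57BL/6N background, so every control tumor carried the mutant allele too. The series' design text speaks of sarcomas before and after treatment where the labels give separate groups. The study describes the sequenced sarcomas as taken from ATO-treated and untreated mice, with ATO given from day 90 until death. On that description the PBS and ATO tumors came from separate mice. Nothing in the sources used here says that the 4 tumors were of the same sarcoma type, the age of each mouse at collection is not given in the sources used here, and the labels attach to all 4 samples a cell culture protocol (dexamethasone and isobutylmethylxanthine, then insulin) that has no counterpart in the methods for tumor tissue.

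A cell leaves G1 when a D-type cyclin binds Cdk4 or Cdk6 and the complex starts to phosphorylate the retinoblastoma family of pocket proteins, which otherwise hold E2F transcription factors in check. Cyclin E and Cdk2, freed of inhibitory phosphates by the phosphatase Cdc25a, then complete the step, and the E2F target genes for DNA synthesis come on. In resting cells p130, the product of Rbl2, sits with E2f4 and the MuvB proteins on the promoters of cell cycle genes as the DREAM repressor complex, whereas p107, the product of Rbl1, is itself the product of an E2F target gene and is more abundant in cycling cells.

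In these sarcomas the D-cyclin kinases Cdk4 and Cdk6 were lower in both ATO tumors than in both PBS tumors, by 2.15-fold and 3.03-fold between group means, and Rbl2 was 2.37-fold higher. Ccnd1, Ccnd2 and Cdc25a were also lower in both ATO tumors, whereas Ccnd3, Cdk2, Rbl1 and E2f4 overlapped between the groups. No member passed the test over all genes, so these are differences between the tumors at hand and not calls.

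The table gives each gene's raw read count and its FPKM, the count divided by exon length in kilobases and by the library's total. Levels below are normalized FPKM, for which the total was scaled with edgeR's TMM factor, an estimate of each library's effective size. Fold changes are the log2 of ATO over PBS from edgeR's quasi-likelihood fit with n = 2 tumors per group, and the adjusted p is the Benjamini-Hochberg value over all 17188 genes with a threshold of 0.05. Total counts ranged from 15259695 to 18134000. Mitochondrially encoded genes took 14.7% of the counts of ATO 2 and between 1.98% and 2.59% in the others, and tumors of a group differed with a biological coefficient of variation of 62.5%. No gene passed in edgeR, 0% of the genes tested and 0 of 10 members, with a smallest adjusted p of 0.570 and 1463 genes at an unadjusted p under 0.05. DESeq2 called 754 of 18277 genes (4.13%) and likewise 0 of the 10 members. The p-values measure only the spread between these tumors.

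Markers of cell types stood apart between the tumors. The study found angiosarcomas, soft sarcomas and osteosarcomas in mice of this genotype. The type of each tumor here is not given in the sources used here. Whether the markers below came from tumor cells or from other cells was not tested. All 6 mesenchymal markers, among them Vim, Col1a1 and Pdgfrb, were detected in every tumor. Their summed normalized FPKM was 4466 in PBS 1, 1343 in PBS 2, 3964 in ATO 1 and 1425 in ATO 2. Of the 6, Vim and Pdgfrb were lower in both ATO tumors than in both PBS tumors. Their log2 fold changes were -1.46 and -1.25, with edgeR adjusted p of 0.669 and 0.585. Col1a1, Col1a2, Col3a1 and Pdgfra overlapped between the groups. All 8 skeletal muscle markers were higher in both ATO tumors, with sums of 9.58 and 129.9 in the PBS tumors against 14343 and 1255, and so were all 5 adipocyte markers, with sums of 11.7 and 60.0 against 228 and 1673. Of the adipocyte markers Lep was at 0 in both PBS tumors and Plin1 in PBS 1. The 5 endothelial markers summed to 93.7, 847, 73.9 and 184 in PBS 1, PBS 2, ATO 1 and ATO 2, the 6 osteoblast markers to 12, 5.77, 486 and 6.01, the 7 leukocyte markers to 256, 141, 227 and 432, the 4 erythroid markers to 247, 16139, 9735 and 1223, and the 5 epithelial markers to 0.963, 7.0, 5.4 and 22.9. The part of these cell types in the results below was not tested, and in such bulk samples fewer cells of a type and less RNA per cell cannot be told apart.

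Against this background 5 of the 10 members had both ATO tumors below both PBS tumors, where 20.2% of all genes tested did, and 1 of 10 had both above, where 19.7% did. At an unadjusted p under 0.05, Cdk4 and Cdk6 were lower, where 3.07% of all genes were, and Rbl2 was higher, where 5.44% were. The fitted fold change was below 0 for 8 members and above 0 for 2, and its median over the members was -0.44 on the log2 scale beside -0.016 over all genes tested.

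**Figure D1:**
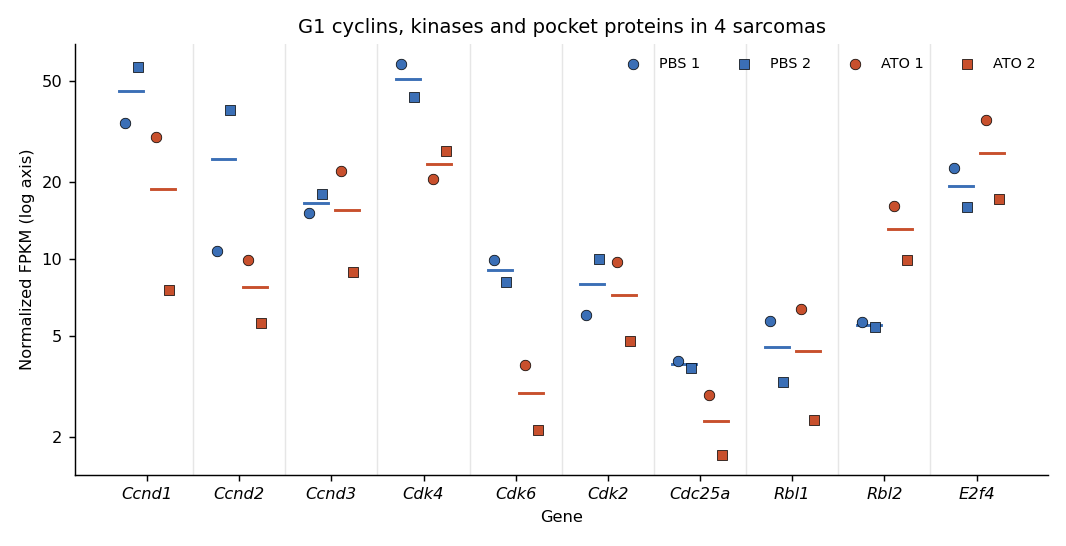
Normalized FPKM (log scale) of the 10 members in each sarcoma, with the PBS and ATO tumors as separate points and the group mean as a bar. The points of the groups separate for Ccnd1, Ccnd2, Cdk4, Cdk6 and Cdc25a, with ATO lower, and for Rbl2, with ATO higher, and they overlap for the other 4 genes.

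The promoters of the members are shown first for what they hold, since the classes of G1 gene are commonly told apart by the factors that bind there. RefSeq windows of the GRCm38.p6 build, 250 bases before the annotated start, were at hand for 7 of the 10 genes, with 2 windows for Ccnd3, and were searched on both strands beside 32851 windows in all. The Cdk4 window, chr10:127063285-127063534 on the plus strand, held CACGTG, the core of the E-box that Myc and its partner Max bind, 4 times. This sequence reads the same on both strands and was found in 6.02% of all windows. It is printed whole because of the spacing of the copies, which are in capitals and begin 172, 118, 98 and 11 bases before the start.
Cdk4: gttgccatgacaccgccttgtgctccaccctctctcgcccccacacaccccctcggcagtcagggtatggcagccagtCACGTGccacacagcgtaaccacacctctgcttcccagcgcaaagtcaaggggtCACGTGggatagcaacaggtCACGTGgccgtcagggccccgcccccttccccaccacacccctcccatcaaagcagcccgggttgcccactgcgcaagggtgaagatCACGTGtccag

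A canonical E2F site was searched as TTTCCCGC, TTTCGCGC, TTTGCCGC or TTTGGCGC on either strand, and 1.86% of all windows held at least 1 of these. Among the members Rbl1, Cdc25a and Cdk2 held 1 each, beginning 18, 67 and 140 bases before the start. The match and its flanks are printed for these genes because all 3 have a role as targets or partners of the E2F factors. The match is in capitals, on the gene's own strand, at chr2:157204535-157204572 (minus) for Rbl1, chr9:109875492-109875539 (plus) for Cdc25a and chr10:128705164-128705211 (minus) for Cdk2, where GCGGGAAA is the reverse strand of TTTCCCGC.
Rbl1: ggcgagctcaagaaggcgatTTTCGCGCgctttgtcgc
Cdc25a: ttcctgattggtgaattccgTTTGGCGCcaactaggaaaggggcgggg
Cdk2: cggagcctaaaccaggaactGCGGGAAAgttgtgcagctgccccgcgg

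The Cdk6 window, chr5:3343643-3343892, lies inside the GENCODE span of the gene given below. It held 1 CACGTG and no E2F letters. The Rbl2 window held 1 TTTGAA, the cell cycle homology region of MuvB targets, which was in 16.0% of all windows, and no E2F letters. Neither Ccnd3 window held any of these letters, and that at chr17:47593217-47593466 also lies inside the gene's span. A match is a description of the letters and not a measured site.

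The first class of member is the D-type cyclins, which carry growth signals into the cell cycle. Ccnd1 (ENSMUSG00000070348, chr7:144929931-144939925, minus strand, GRCm38) encodes cyclin D1, which is made in response to growth factors in many mesenchymal cells. Its level was 34.3 in PBS 1, 56.8 in PBS 2, 30.2 in ATO 1 and 7.54 in ATO 2. Both ATO tumors lay below both PBS tumors, but ATO 1 came close to PBS 1, 1.13-fold apart, and the 2 ATO tumors were 4.01-fold from each other. The group means were 45.5 ± 15.9 for PBS and 18.9 ± 16.0 for ATO (SD, n = 2 each), with a log2 fold change of -1.27 (SE 0.78, 95% interval -3.33 to 0.79) and an edgeR adjusted p of 0.688. Without ATO 2 the fold change was -0.58. Of the exon bases of Ccnd1, 23.4% are shared with LTO1 on the opposite strand, and whether reads were counted by strand is not given in the sources used here. LTO1 itself held 297, 371, 297 and 293 reads in PBS 1, PBS 2, ATO 1 and ATO 2, against 3070, 5306, 2590 and 443 for Ccnd1. The part of shared reads in the Ccnd1 level was not tested.

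Ccnd2 (ENSMUSG00000000184, chr6:127125162-127152193, minus strand) encodes cyclin D2, the D-type cyclin of lymphocytes, ovary and pancreatic beta cells among others. It stood at 10.8, 38.5, 9.89 and 5.63 in PBS 1, PBS 2, ATO 1 and ATO 2. PBS 2 was far above the other 3 tumors, and the PBS tumors differed by 3.57-fold from each other, more than the 3.18-fold between the group means. The means were 24.7 ± 19.6 for PBS and 7.76 ± 3.01 for ATO. The log2 fold change was -1.67 (SE 0.76, 95% interval -3.67 to 0.33), the edgeR adjusted p was 0.610, and without PBS 2 the fold change was -0.48. PBS 2 also had the highest endothelial and erythroid sums given above, and their part in its Ccnd2 level was not tested.

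Ccnd3 (ENSMUSG00000034165, chr17:47505051-47599691, plus strand) encodes cyclin D3, the D-type cyclin best known for its use in thymocytes and for its retention in differentiating muscle. Its levels were 15.2, 18.0, 22.2 and 8.88 in the same order. The ATO tumors lay on either side of the PBS tumors. The means of 16.6 ± 2.02 and 15.5 ± 9.43 gave a log2 fold change of -0.10 (SE 0.57, 95% interval -1.60 to 1.40) and an edgeR adjusted p of 0.974, and the sign of the fold change turned to 0.43 without ATO 2 and to 0.029 without PBS 2.

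Set beside each other per length of exon, the 3 D-type cyclins made up different mixtures in the tumors. Ccnd1 held 56.9% and 50.1% of their summed normalized FPKM in PBS 1 and PBS 2, against 48.5% in ATO 1 and 34.2% in ATO 2. The share of Ccnd3 was 25.2% and 15.9% in the PBS tumors and 35.6% and 40.3% in the ATO tumors. Ccnd1 was thus the leading D-type cyclin in PBS 1, PBS 2 and ATO 1, and Ccnd3 in ATO 2. The share of Ccnd2 overlapped, at 17.9% and 34% in PBS and 15.9% and 25.5% in ATO. The summed level of the 3 cyclins was 60.3 in PBS 1, 113 in PBS 2, 62.3 in ATO 1 and 22 in ATO 2, so ATO 1 was within the range of the PBS tumors and ATO 2 below it. As shares of reads, before the scaling to length, the widest Wilson 95% interval was 2.14 percentage points to either side, which covers counting error only.

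**Figure D2:**
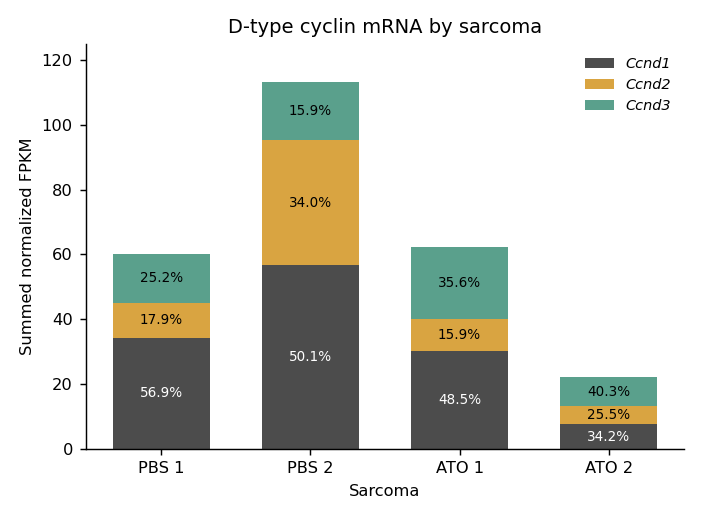
Stacked bars of the normalized FPKM of Ccnd1, Ccnd2 and Ccnd3 in each of the 4 sarcomas, with each gene's share of the sum printed in its segment as a percentage. Ccnd3 holds 35.6% and 40.3% in the ATO tumors and 25.2% and 15.9% in the PBS tumors, and the sum is lowest in ATO 2.

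The ratio of Ccnd1 to Ccnd3, which does not depend on the scaling of a library, was 2.26 and 3.15 in the PBS tumors and 1.36 and 0.848 in the ATO tumors. The groups did not overlap, with a difference of mean log2 ratios of -1.31, and the exact two-sided permutation test gave p = 0.333, the smallest value that 2 tumors against 2 allow. The log2 ratio of Ccnd1 to Ccnd2 was 1.67 and 0.56 in PBS against 1.61 and 0.42 in ATO. This ratio differed far more within each group than between the group means, whose difference was -0.098 (exact permutation p = 0.667). Both members of the pair lay lower in ATO.

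Cdk4 and Cdk6 are the kinases that the D-type cyclins activate. Cdk4 (ENSMUSG00000006728, chr10:127063534-127067920, plus strand), whose promoter is printed above, had the highest level of the 10 members in PBS 1 and ATO 2, the second in PBS 2 and the fourth in ATO 1. It stood at 58.6 in PBS 1, 43.2 in PBS 2, 20.7 in ATO 1 and 26.7 in ATO 2. The groups were apart, and the tumors within a group were close, 1.36-fold apart for PBS and 1.29-fold for ATO. The means of 50.9 ± 10.9 and 23.7 ± 4.22 gave a log2 fold change of -1.10 (SE 0.41, 95% interval -2.19 to -0.019), with an unadjusted p of 0.0474 and an edgeR adjusted p of 0.583. With any 1 tumor left out the fold change stayed between -1.31 and -0.87. Tspan31, which lies on the opposite strand and shares 641 exon bases with Cdk4, 19.7% of them, did not follow it, at 21.3 and 24.4 in the PBS tumors and 20.2 and 28.5 in the ATO tumors. The part of shared reads in the Cdk4 level was not tested.

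Cdk6 (ENSMUSG00000040274, chr5:3341485-3531008, plus strand) pairs with the same cyclins and is the main partner in blood cells. Its levels were 9.95 and 8.15 in the PBS tumors and 3.84 and 2.14 in the ATO tumors. Both ATO tumors were below both PBS tumors and the within-group differences, 1.22-fold in PBS and 1.80-fold in ATO, were smaller than the 3.03-fold between the means. The means were 9.05 ± 1.27 and 2.99 ± 1.20, the log2 fold change was -1.60 (SE 0.46, 95% interval -2.81 to -0.39), the unadjusted p was 0.0197 and the edgeR adjusted p 0.570. That was the lowest p among the 10 members, and over 15 settings its adjusted p ranged from 0.190 to 0.872.

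Cdk4 exceeded Cdk6 in every tumor, by 5.89-fold in PBS 1, 5.30-fold in PBS 2, 5.4-fold in ATO 1 and 12.5-fold in ATO 2. ATO 2 stood apart and ATO 1 lay among the PBS tumors. The difference of mean log2 ratios was 0.55 (exact permutation p = 0.667), and it was -0.049 without ATO 2.

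Cdk2 and Cdc25a act next in G1. Cdk2 (ENSMUSG00000025358, chr10:128697939-128705031, minus strand), the partner of the E and A cyclins, stood at 6.02 and 10.0 in the PBS tumors and 9.73 and 4.75 in the ATO tumors. These values overlap, and each group spans about the same range. The log2 fold change was -0.15 (SE 0.54, 95% interval -1.56 to 1.27, edgeR adjusted p 0.956), and it was 0.29 without ATO 2 and 0.26 without PBS 2. The exons of the pigment gene Pmel overlap those of Cdk2 by 34 bases only.

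Cdc25a (ENSMUSG00000032477, chr9:109875579-109893895, plus strand) encodes the phosphatase that removes inhibitory phosphates from Cdk2 and Cdk1 and is itself an E2F and Myc target gene. It had the lowest level of the members in PBS 1, ATO 1 and ATO 2, at 3.98 and 3.74 in the PBS tumors and 2.94 and 1.70 in the ATO tumors. Both ATO tumors were lower, while the PBS tumors differed by only 1.06-fold. The means were 3.86 ± 0.167 and 2.32 ± 0.876, with a log2 fold change of -0.74 (SE 0.46, 95% interval -1.95 to 0.48) and an edgeR adjusted p of 0.695. The fold change was -0.39 without ATO 2 and -1.20 without ATO 1.

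Rbl1 and Rbl2 are the pocket proteins related to Rb. Rbl1 (ENSMUSG00000027641, chr2:157145893-157204534, minus strand) encodes p107. Its levels were 5.73 and 3.30 in PBS 1 and PBS 2 and 6.36 and 2.33 in ATO 1 and ATO 2. The ATO tumors held both the highest and the lowest value. The log2 fold change was -0.054 (SE 0.65, 95% interval -1.77 to 1.66, edgeR adjusted p 0.988), and it was 0.50 without ATO 2 and 0.40 without PBS 1.

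Rbl2 (ENSMUSG00000031666, chr8:91070057-91123844, plus strand) encodes p130, the pocket protein that is most abundant in quiescent and differentiated cells, muscle among them. It was the only member with both ATO tumors above both PBS tumors, at 5.66 and 5.39 in PBS and 16.2 and 9.96 in ATO. The PBS tumors were nearly equal, 1.05-fold apart, and the ATO tumors 1.63-fold. The means of 5.53 ± 0.192 and 13.1 ± 4.44 gave a log2 fold change of 1.24 (SE 0.42, 95% interval 0.15 to 2.34), with an unadjusted p of 0.0335 and an edgeR adjusted p of 0.570. The fold change was 0.83 at the lowest and 1.56 at the highest with 1 tumor left out. Rbl2 was the ninth and the eighth of the members by level in PBS 1 and PBS 2 but the fifth in ATO 1 and the third in ATO 2. Its exons share 892 bases, 11.8%, with Gm45464 and 693 bases, 9.17%, with Aktip, both on the opposite strand. Gm45464 held between 7 and 23 reads in each tumor. Aktip held 508 and 293 reads in PBS 1 and PBS 2 and 719 and 542 in ATO 1 and ATO 2. It was thus also higher in both ATO tumors, and the part of shared reads in the Rbl2 level was not tested. The skeletal muscle and adipocyte sums given above were higher in the ATO tumors too, and their part in the Rbl2 level was not tested.

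The balance of the pocket proteins, read as the ratio of Rbl1 to Rbl2, was 1.01 in PBS 1, 0.611 in PBS 2, 0.392 in ATO 1 and 0.233 in ATO 2. Both genes were thus about equal in PBS 1, and Rbl2 exceeded Rbl1 in the other 3 tumors, most in ATO 2. The difference of mean log2 ratios was -1.38, from -0.35 ± 0.51 in PBS to -1.72 ± 0.53 in ATO, with an exact two-sided permutation p of 0.333. Among the 4 ratios examined this one and that of Ccnd1 to Ccnd3 kept the groups apart, and neither can fall below that p in a design of this size, before or after adjustment over the 4.

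**Figure D3:**
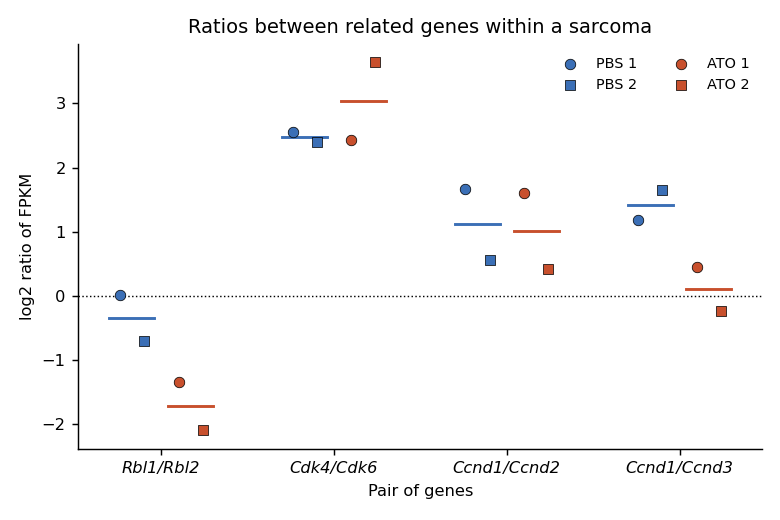
Log2 ratio of the FPKM of each pair of members in the 4 sarcomas, with PBS and ATO tumors as separate points. The groups are apart for Rbl1/Rbl2 and Ccnd1/Ccnd3 and overlap for Cdk4/Cdk6 and Ccnd1/Ccnd2.

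E2f4 (ENSMUSG00000014859, chr8:105297663-105305370, plus strand) encodes the E2F factor that acts mainly as a repressor, with Rbl2 in DREAM. It had a level of 22.8 in PBS 1, 16.0 in PBS 2, 35.3 in ATO 1 and 17.2 in ATO 2. ATO 1 was the highest and ATO 2 lay between the PBS tumors. The log2 fold change was 0.43 (SE 0.51, 95% interval -0.91 to 1.77, edgeR adjusted p 0.839), and it was -0.20 without ATO 1. In ATO 1 E2f4 had the highest level of all 10 members.

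**Figure D4:**
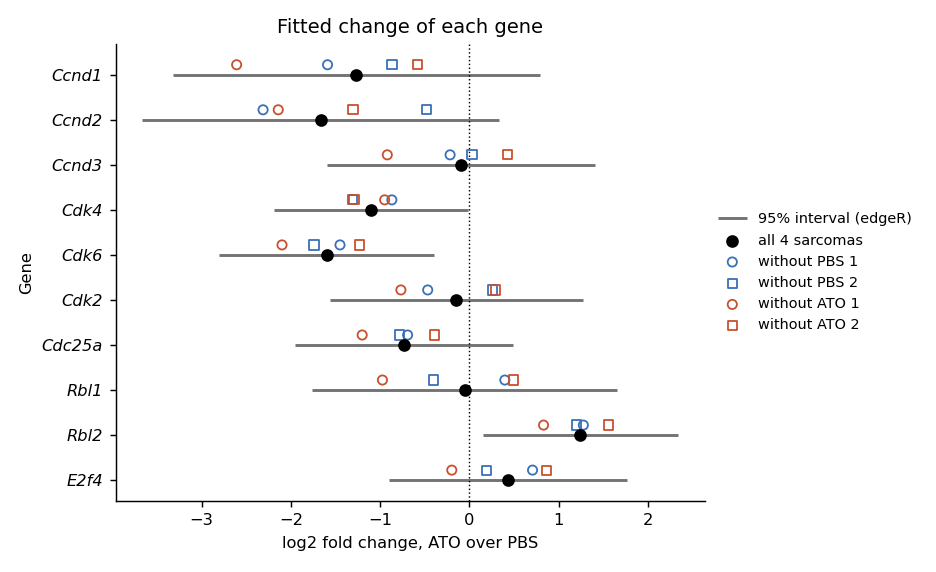
Log2 fold change of ATO against PBS for each member (filled point, edgeR) with its 95% interval (line), and the fold change with each sarcoma left out in turn (open symbols). The interval lies below 0 for Cdk4 and Cdk6, above 0 for Rbl2, and includes 0 for the other 7 genes.

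Ranked by their mean level in PBS, the members ran from Cdk4 and Ccnd1 through Ccnd2, E2f4 and Ccnd3 to Cdk6, Cdk2, Rbl2, Rbl1 and Cdc25a. Cdk4 and Ccnd1 changed places between the PBS tumors, as did E2f4 and Ccnd3, Cdk6 and Cdk2, Rbl1 and Rbl2, and Rbl1 and Cdc25a. The order within each of these pairs is thus not settled by the PBS tumors. Ccnd2 held its place through PBS 2, and in PBS 1, at 10.8, it was below both E2f4 and Ccnd3. In ATO 2 the sum of the 10 members was 86.8, beside 157 in ATO 1 and 173 and 203 in the PBS tumors.

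The rest of the pathway was read from 7 lists of 61 genes, all of which were tested and 0 of which passed in edgeR. Of these 41 were fitted lower and 20 higher in ATO, with a median log2 fold change of -0.37 beside -0.016 over all genes, and 13 of the 61 had both ATO tumors below both PBS tumors and 4 both above, where 20.2% and 19.7% of all genes tested did. At an unadjusted p under 0.05, Cdkn1a, Rb1 and Lin52 were higher and Tyms was lower, where 5.44% and 3.07% of all genes were. From each list the 2 genes with the largest fitted change are given.

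The 7 CDK inhibitors went both ways, with a median log2 fold change of 0.026. With 1 tumor left out in turn that median ranged from -0.55 to -0.20. Cdkn1a, which encodes p21, an inhibitor of Cdk2 and a p53 target, stood at 5.15 and 16.2 in the PBS tumors against 75.5 and 60.4 in the ATO tumors, with a log2 fold change of 2.67 (edgeR adjusted p 0.570). Cdkn2a, the gene of p16 and Arf, of which p16 inhibits Cdk4 and Cdk6, stood at 119 and 68.1 in PBS against 19.2 and 1.44 in ATO, with a log2 fold change of -3.17 (edgeR adjusted p 0.588). The groups were apart for both genes, in opposite directions.

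The 10 RB and E2F partners had a median of 0.33, which was -0.41 without ATO 1 and 0.57 without ATO 2. Tfdp2, a partner of the E2F factors in DNA binding, and E2f2, an activating E2F that is also abundant in maturing red cells, were each highest in ATO 1. E2f2 stood at 1.83, 9.58, 44.4 and 5.33 in PBS 1, PBS 2, ATO 1 and ATO 2, and Tfdp2 at 2.44, 2.74, 17.1 and 1.97, so both overlapped between the groups. The log2 fold changes were 2.13 and 1.88, with edgeR adjusted p of 0.683 and 0.660. Rb1, named here after its values were seen, was the pocket protein gene that lay with Rbl2, at 3.92 and 4.89 in PBS and 18.3 and 9.38 in ATO (log2 fold change 1.65, edgeR adjusted p 0.570).

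The 6 genes of the MuvB core with its activating kinase Dyrk1a had a median of 0.067, which was -0.41 without ATO 1 and 0.17 without ATO 2. Lin52, the subunit that Dyrk1a phosphorylates when DREAM assembles, stood at 2.30 and 1.88 in PBS and 5.85 and 4.82 in ATO (log2 fold change 1.35, edgeR adjusted p 0.580). Dyrk1a overlapped, at 8.52 and 6.73 in PBS and 13.1 and 5.77 in ATO, with a log2 fold change of 0.31.

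Of the genes of later steps, the list of later cyclins with their kinase Cdk1, 6 genes, had a median log2 fold change of -0.69, led by Ccnb1 at -1.07 and Cdk1 at -0.85. That median was 0.17 without ATO 2 and 0.11 without PBS 1. Ccnb1 encodes cyclin B1, which drives mitosis with Cdk1. Levels of Cdk1 were 10.2 and 8.32 in PBS and 8.31 and 2.00 in ATO, so ATO 1 was level with PBS 2 and ATO 2 was lower. The 11 genes of CDK activation and turnover had a median of -0.63, which was -0.20 without ATO 2 and -0.23 without PBS 1, with Cks1b at -1.88 and Cdc25c at -1.43. Cks1b, an adaptor of the ligase that degrades p27, stood at 84.7 in PBS 1 and 19.7 in PBS 2 against 19.6 and 8.75 in ATO, so the groups barely separated.

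The 12 replication genes that E2F controls had a median of -0.42, which was 0.17 without ATO 2 and 0.097 without PBS 1. Tyms, thymidylate synthase, stood at 6.86 and 4.95 in PBS and 3.0 and 1.82 in ATO (log2 fold change -1.29, edgeR adjusted p 0.583), and Mcm7, a subunit of the replicative helicase, overlapped, with a log2 fold change of -0.76. The 9 proliferation markers had a median of -1.05, which was -0.23 without ATO 2 and -2.76 without ATO 1, with Foxm1, a transcription factor of mitotic genes, at -1.79 and Bub1, a kinase of the spindle checkpoint, at -1.67. Their medians in PBS 1, PBS 2, ATO 1 and ATO 2 were 12.8, 9.34, 11.1 and 1.81, so ATO 1 lay within the PBS range and ATO 2 well below it. Mki67, named after its values were seen, was highest in ATO 1, at 45.2, and lowest in ATO 2, at 2.40, with 15.0 and 10.7 in the PBS tumors. Birc5 had the same order, at 17.3 in ATO 1 and 1.81 in ATO 2, with 12.8 and 8.98 in the PBS tumors. The other markers of the list did not. In ATO 1 Bub1, at 3.28, Plk1, at 12.9, Aurkb, at 8.88, and Foxm1, at 3.74, lay below both PBS tumors. Top2a, Aurka and Mybl2 lay between the PBS tumors there.

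**Figure D5:**
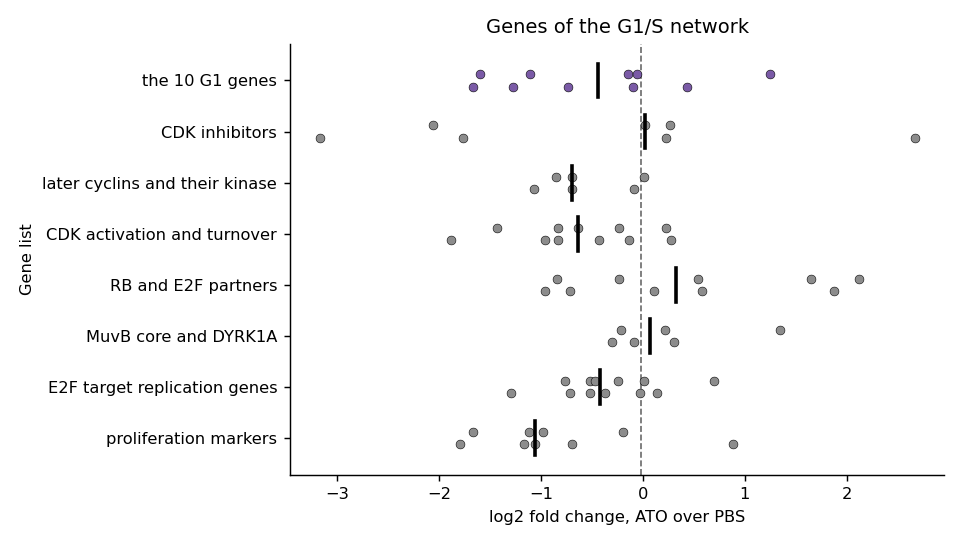
Log2 fold change of ATO against PBS (edgeR) for each gene of the 7 pathway lists and of the 10 members, with the median of each list as a black bar and that of all genes tested as a dashed line. The lists' medians run from -1.05 for the proliferation markers to 0.33 for the RB and E2F partners, and the members' median is -0.44.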

How the data were processed

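RNA-seq of 4 W/+ sarcomas was analysed, grouped by the treatment in the labels. Per the methods and the submitters' notes, the authors checked reads with FastQC 0.10.1, trimmed them with cutadapt 1.9.1, aligned them to GRCm38 with HISAT2 2.0.1 and counted them per gene with HTSeq, and the raw counts were deposited. The authors also deposited FPKM, which equalled the count over exon length and total count to within 0.005. The labels name TRIzol and a SMARTER kit where the methods name a spin column kit and TruSeq. The strand setting is not given in the sources used here. Only 1472 of 52073 shared genes (2.83%) had their GENCODE M21 position of GRCm38 in the table, so coordinates come from GENCODE M21 by gene ID, and table positions served only for gene order. Genes without a symbol, 2639 in all, held at most 0.171% of a tumor's counts.

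Differences were fitted in R 4.3.3 with the quasi-likelihood F-test of edgeR 4.0.16 after filterByExpr, on a trended dispersion, with Benjamini-Hochberg adjustment over 17188 genes and a threshold of 0.05. The TMM factors were 1.09 and 1.11 for the PBS tumors, 1.01 for ATO 1 and 0.822 for ATO 2. The genes tested held at least 99.49% of each tumor's counts. A count of 0 allows up to 3 counts, between 0.165 and 0.197 CPM, for counting error only. Ratios were tested with an exact two-sided permutation test in scipy 1.17.1 (Python 3.11.15). The alternatives were a DESeq2 1.42.0 fit, edgeR on DESeq2 size factors, on library totals alone or without mitochondrial genes, other filters, robust estimation, a replicate block, each tumor left out, and limma 3.58.1 on log2(FPKM + 1) and log2(FPKM + 0.1). The edgeR step was tested on simulated counts. The members, the lists, the motifs and the rules for the genes named were chosen with earlier results of these data known. The text names all members, 2 genes per pathway list by size of change where none passed, up to 3 genes tested on each side of 5 members, and the 3 genes most like each D-type cyclin. No sample column was left unmapped.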

Additional observations from a re-analysis of the deposited data

How the results depend on the processing

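With 2 tumors per group the narrowest 95% interval of a member's log2 fold change, that of Cdk4, ran from -2.19 to -0.019, and the widest, that of Ccnd1, from -3.33 to 0.79. No member passed the threshold in any of the 14 alternatives. Over all genes DESeq2 called 754 and edgeR without a filter on low counts 541 where edgeR called 0, and the cause was not tested. Cdk4, Cdk6, Ccnd1, Ccnd2, Cdc25a and Rbl2 kept the sign of their fold change in all 14 alternatives. These are the members whose groups did not overlap, so refitting the same tumors could hardly turn their sign. The share of all genes that kept their sign was not computed. Library totals alone moved the all-gene median log2 fold change by -0.27, and on that scale the members' median lay -0.38 from the all-gene median, beside -0.42 with TMM.

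With 1 tumor left out in turn, and the lone tumor of its group assumed to vary like the others, edgeR called 0 genes each time. The fold change ranged from -0.92 to 0.43 for Ccnd3, from -0.77 to 0.29 for Cdk2, from -0.97 to 0.50 for Rbl1 and from -0.20 to 0.86 for E2f4. Members with the ATO tumors above numbered 1 to 4, 4 of them without ATO 2, and those below 5 to 8, 8 of them without ATO 1. Groups separate more readily when 1 of them holds a lone tumor. The share of all genes that did so was not computed, so these counts say nothing particular to the members. The difference in log2 ratio ranged from -0.049 to 1.16 for Cdk4 to Cdk6 and from -0.69 to 0.50 for Ccnd1 to Ccnd2, the latter 0.46 without PBS 1. It ranged from -1.75 to -1.0 for Rbl1 to Rbl2 and from -1.65 to -0.97 for Ccnd1 to Ccnd3. List medians ranged from -0.55 to -0.20 for the CDK inhibitors, -2.64 to 0.17 for the later cyclins, -1.10 to -0.20 for CDK activation and turnover, -2.76 to -0.23 for the proliferation markers, -0.41 to 0.57 for the RB and E2F partners, -0.41 to 0.17 for the MuvB list and -1.45 to 0.17 for the replication genes. Among markers they ranged from -1.35 to 1.20 (mesenchymal), -2.71 to 0.64 (endothelial), -1.29 to 6.31 (osteoblast), -0.27 to 1.32 (leukocyte), -3.0 to 4.51 (erythroid) and -0.59 to 4.55 (epithelial). Library totals alone turned the medians of the CDK inhibitors to -0.21 and of the MuvB list to -0.19.

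The tumors share replicate numbers across groups, but the labels give separate groups, so the numbers were not taken as pairs. Deviations from the group means correlated at -0.024 for the same number. With 2 tumors per group these deviations mirror each other, so that value cannot tell whether tumors were paired. The design text's wording of before and after treatment names no pairs. With the replicate block edgeR called 0 genes and 0 members. The fold change was -1.55 for Ccnd1, -1.45 for Ccnd2, -1.10 for Cdk4, -1.65 for Cdk6 and 1.20 for Rbl2, and the block changed no call.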

Other observations

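The genes beside the D-type cyclins and their kinases on the chromosome went both ways. Of 28 neighbours, up to 3 genes tested on each side of Ccnd1, Ccnd2, Ccnd3, Cdk4 and Cdk6, 12 were fitted lower and 16 higher in ATO, with a median log2 fold change of 0.18. Both ATO tumors lay above both PBS tumors for 7 of the 28 and below for 3, where 19.7% and 20.2% of all genes tested did. None passed in edgeR, 0 of 28, and 1 had an unadjusted p under 0.05. All 6 neighbours of Ccnd2, itself at -1.67, were fitted higher, with a median of 0.71. Both ATO tumors lay above both PBS tumors for 4 of these, D6Wsu163e, Fgf23, Tigar and Parp11. Tigar, which encodes a regulator of glycolysis and is a p53 target, is the nearest of them on its side by the table's positions and stood at 2.17 and 3.76 normalized FPKM in PBS 1 and PBS 2 and 12.9 and 6.66 in ATO 1 and ATO 2 (log2 fold change 1.72, edgeR adjusted p 0.570). Fgf23, a hormone made by bone cells, stood at 0 and 0.472 in PBS and 4.85 and 1.33 in ATO. The neighbours of Cdk4 had a median of 0.14, those of Cdk6 -0.036, those of Ccnd1 0.075 and those of Ccnd3 -0.47. Of the 6 beside Ccnd3, 5 were fitted lower, and Bysl and Med20 lay below in both ATO tumors.

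The genes whose levels over the 4 tumors were most like those of each D-type cyclin were found by the root mean square difference of centred log2(CPM + 1). For Ccnd1 these were Myo1d, Cd109 and Bora, with differences of 0.094, 0.13 and 0.15. Myo1d stood at 14.0 and 26.4 normalized FPKM in PBS and 13.1 and 3.62 in ATO. For Ccnd2 they were Abca4, Zfand4 and Pax1, with differences of 0.058, 0.081 and 0.093, of which Zfand4 stood at 2.00 and 7.12 in PBS and 1.98 and 0.977 in ATO. For Ccnd3 they were Cerox1, Erbb2 and Ankrd16, with differences of 0.027, 0.032 and 0.045, of which Erbb2, a receptor tyrosine kinase, stood at 3.78 and 4.60 in PBS and 5.38 and 2.17 in ATO. Within 0.25 lay 417 genes for Ccnd3, beside 9 for Ccnd1 and 21 for Ccnd2. The difference was not scaled to how much a gene varied, and Ccnd3 varied least of the 3. These counts therefore do not tell how common each pattern was. With 4 tumors such likeness is a description only.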
